A study of Mus musculus with 10 samples.

Results

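The 10 Toll-like receptor genes Tlr1, Tlr2, Tlr3, Tlr4, Tlr6, Tlr7, Tlr9, Tlr11, Tlr12 and Tlr13 were followed through RNA sequencing libraries of mouse spleen dendritic cells. They were chosen by name, with no threshold on their values, and make up 10 of the 53379 genes counted in each library. The mice were 16 weeks old on a C57BL/6 background and either lacked Atg16l1 (Atg16l1 -/-, KO) or carried it (Atg16l1 +/+, WT); the gene product attaches LC3 to membranes during autophagy. Dendritic cells with high MHC class II and CD11c were sorted from the spleens of individual mice by CD11b and CD8. The labels define 4 groups, which are CD11b KO (n = 2), CD11b WT (n = 3), CD8 KO (n = 2) and CD8 WT (n = 3). Which part of Atg16l1 was deleted, and in which cells, is not given in the sources used here.

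Toll-like receptors bind microbial molecules and pass the signal through cytoplasmic adaptors to NF-kB and interferon regulatory factors. The surface receptors Tlr1, Tlr2, Tlr4 and Tlr6 bind lipopeptides and lipopolysaccharide at the plasma membrane. The endosomal receptors Tlr3, Tlr7, Tlr9, Tlr11, Tlr12 and Tlr13 bind nucleic acids or, for Tlr11 and Tlr12, the parasite protein profilin, and depend on the chaperone Unc93b1 to reach endosomes, where proteases cut several of them. In mouse spleen, Tlr3 is a known receptor of the CD8-bearing dendritic cells called cDC1, which carry little Tlr7, while the CD11b-bearing cDC2 carry Tlr7.

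Gene counts per library ran from 9467704 to 13768884, and values are CPM, the strand-specific count of a gene relative to the scaled total of its library. Atg16l1 stood at 1.73 to 3.31 CPM in the 4 KO libraries, against 13.3 to 32.7 CPM in the 6 WT libraries. In each of the 10 libraries the subset label and the markers Cd8a, Xcr1, Itgam and Sirpa pointed in opposite directions. The libraries labelled CD11b had 448 to 578 CPM of Cd8a, which encodes CD8 alpha, and those labelled CD8 had 0.905 to 5.87 CPM. For Xcr1, a chemokine receptor of cDC1, the ranges were 290.0 to 442 CPM under the label CD11b and 7.14 to 11.3 CPM under the label CD8. Both genes were thus high where the label names CD11b. Itgam, which encodes CD11b, ranged over 1.58 to 2.73 CPM under the label CD11b and over 76.1 to 104 CPM under the label CD8. Sirpa, a marker of cDC2, ranged over 23.9 to 29.2 CPM under the label CD11b and over 553 to 629 CPM under the label CD8. The 10 listed cDC1 markers summed to 9778 to 10588 CPM under the label CD11b and 2629 to 3011 CPM under the label CD8. The 10 listed cDC2 markers summed to 179 to 194 CPM and 1301 to 1544 CPM under those labels. Of the cDC2 list, Clec12a lay the other way, at 90.9 to 106 CPM under the label CD11b and 18.5 to 28.2 CPM under the label CD8. The labels are kept as given, so "label CD11b" and "label CD8" name libraries and not the cells sorted, and libraries are called by their labels throughout. In bulk libraries such as these, fewer cells of a type and less RNA per cell cannot be told apart.

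The receptors differed by label, and none of them passed a test between genotypes. At the label CD11b, Tlr3, Tlr11 and Tlr12 were higher and Tlr1, Tlr2, Tlr6, Tlr7, Tlr9 and Tlr13 lower than at the label CD8, in KO and in WT alike, and Tlr4 did not pass the test in either. In KO, 9 of the 10 receptors passed an edgeR adjusted p of 0.05 (3 higher, 6 lower), beside 22.8% of all 14528 genes tested, of which 10.3% were higher and 12.5% lower. In WT, 9 of 10 passed as well (3 higher, 6 lower), beside 29.5% of all genes tested, of which 13.8% were higher and 15.7% lower. Tlr6 passed the filter on low counts only through the libraries labelled CD8, and without it 8 of 9 were called in each genotype (3 higher, 5 lower). Between KO and WT, 0 of the 10 receptors passed at either label, beside 0.145% of all genes at the label CD11b and 0.145% at the label CD8.

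**Figure D1:**
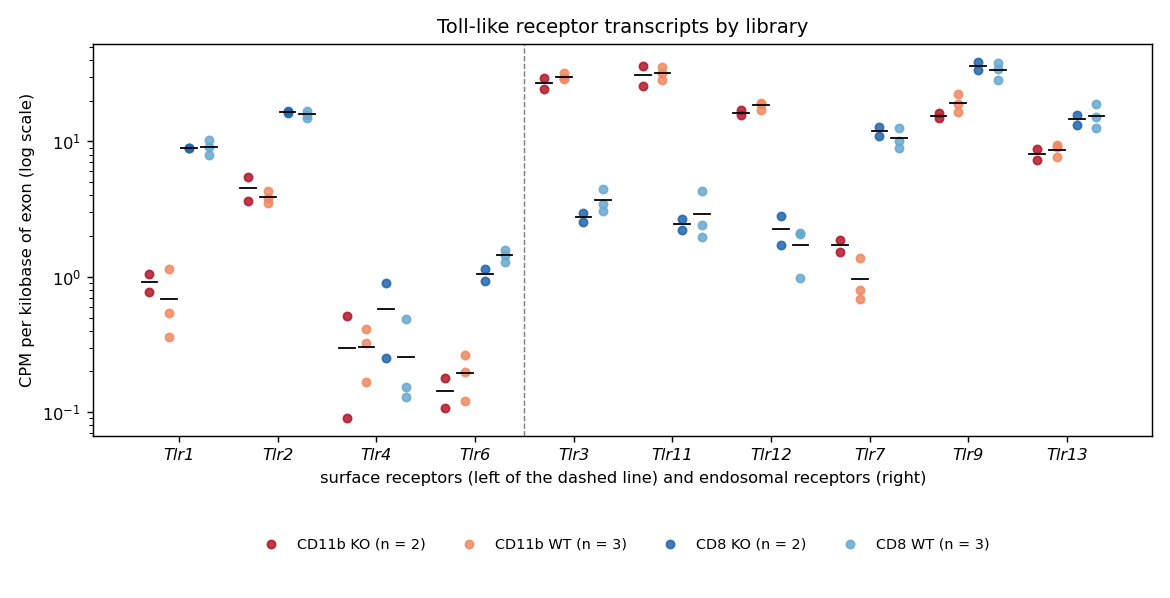
Level of each receptor in each of the 10 libraries, as CPM per kilobase of exon on a log axis; points are libraries, coloured by label and genotype, and black bars are group means. Tlr3, Tlr11 and Tlr12 lie at 15.7 to 36.0 CPM per kilobase in the libraries labelled CD11b, above their own points at the label CD8, and KO and WT points of a label lie close together for most receptors.

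Among the surface receptors, Tlr1, Tlr2 and Tlr6 were lower at the label CD11b and Tlr4 was scarce everywhere. Tlr2 (ENSMUSG00000027995, chromosome 3, 83836272 to 83841767, GRCm38), the shared partner in lipopeptide recognition, had 10.9 and 16.5 CPM in CD11b KO 1 and 2 and 12.9, 11.5 and 10.6 CPM in CD11b WT 1 to 3, against 50.6 and 49.0 CPM in CD8 KO 1 and 2 and 45.3, 50.8 and 47.1 CPM in CD8 WT 1 to 3. Every library labelled CD11b lay below every library labelled CD8, and its log2 fold change, label CD11b over label CD8, was -1.86 ± 0.22 in KO and -2.03 ± 0.18 in WT (SE; edgeR adjusted p = 6.28e-07 and 4.55e-09). Tlr2 pairs with Tlr1 to bind triacylated lipopeptides and with Tlr6 to bind diacylated ones.

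Tlr1 (ENSMUSG00000044827, chromosome 5, 64924679 to 64933563) had 3.53 and 2.58 CPM in CD11b KO 1 and 2 and 1.82, 1.21 and 3.81 CPM in CD11b WT 1 to 3, against 30.0 and 29.9 CPM in CD8 KO 1 and 2 and 30.7, 26.7 and 34.5 CPM in CD8 WT 1 to 3. Its groups did not overlap between labels, and the log2 fold change was -3.30 ± 0.38 in KO and -3.77 ± 0.32 in WT (SE; edgeR adjusted p = 3.34e-07 and 1.36e-09). With counts from both strands it was -2.45 in KO and -2.62 in WT, still past the threshold in edgeR. Tlr2 outweighed Tlr1 by more at the label CD11b. Per kilobase of exon, the ratio of Tlr2 to Tlr1 was 3.43 and 7.09 in the CD11b KO libraries and 3.09 to 10.5 in CD11b WT, against 1.82 and 1.88 in CD8 KO and 1.51 to 2.11 in CD8 WT.

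Tlr6 (ENSMUSG00000051498, chromosome 5, 64952031 to 64960097) lies 18467 bases from Tlr1 on the same strand of chromosome 5. It had 0.404 and 0.667 CPM in CD11b KO 1 and 2 and 0.987, 0.453 and 0.744 CPM in CD11b WT 1 to 3, against 4.28 and 3.48 CPM in CD8 KO 1 and 2 and 5.83, 5.43 and 4.83 CPM in CD8 WT 1 to 3. These values rest on 4 and 8 counts in CD11b KO and 13, 6 and 8 counts in CD11b WT, against 52 and 40 counts in CD8 KO and 54, 60 and 51 counts in CD8 WT. The other 9 receptors would pass the filter on low counts within either label alone. Its log2 fold change was -2.82 ± 0.77 in KO and -2.86 ± 0.61 in WT (SE; edgeR adjusted p = 0.00829 and 7.15e-04). In KO the call was lost without CD11b KO 1 (log2 fold change -2.52, adjusted p = 0.0691), without CD8 KO 1 (-2.67, adjusted p = 0.0516) and with counts from both strands (-1.26, adjusted p = 0.231). In WT, counts from both strands gave -1.70 (edgeR adjusted p = 0.0228).

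Tlr1 and Tlr6 also had counts on the strand opposite to the gene, and mostly at one label. At the label CD11b, Tlr1 had 163 counts on the opposite strand beside 147 on its own strand, a share of 52.6% (exact 95% interval 46.9% to 58.3%). The libraries varied, from 20 counts beside 35 in CD11b KO 1 to 45 beside 16 in CD11b WT 2. At the label CD8, Tlr1 had 28 beside 1651 counts, a share of 1.67% (1.11% to 2.40%). For Tlr6 the opposite strand held 64 beside 39 counts at the label CD11b, a share of 62.1% (52.0% to 71.5%), against 18 beside 257 counts at the label CD8, a share of 6.55% (3.93% to 10.1%). In the other 8 receptors the share was at most 7.18%, and no other gene is annotated across the exons of Tlr1 or Tlr6 on either strand. These intervals cover counting error only. Tlr1 and Tlr6 resemble each other in sequence, with 15.4% of the 50-base words of Tlr1 transcripts and 12.3% of those of Tlr6 found in another gene, most often in the partner, so reads from these stretches may have been left uncounted. Such words were absent from the other receptors except for 1 word of Tlr4.

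**Figure D2:**
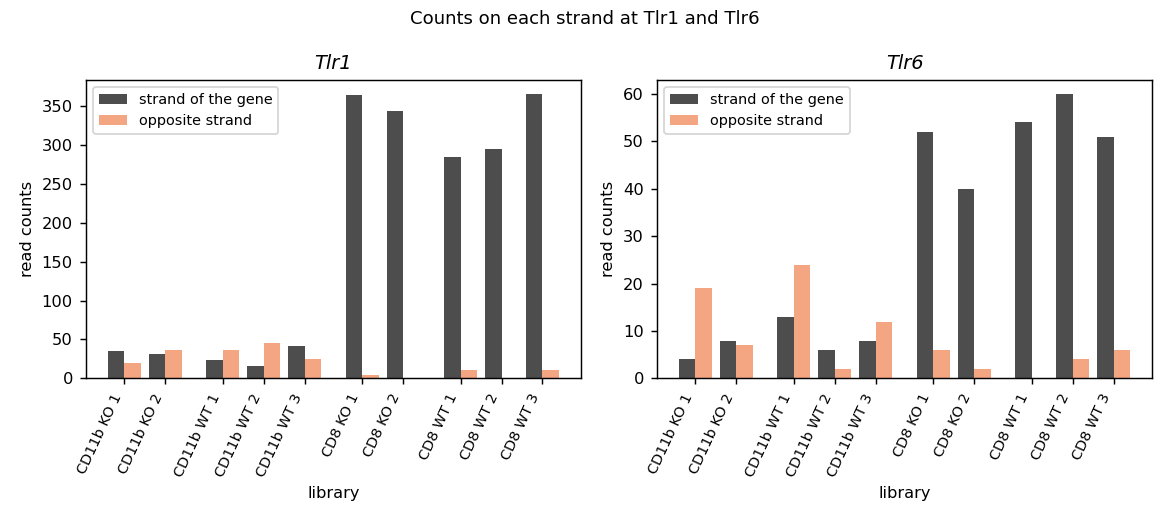
Read counts on the strand of the gene (dark bars) and on the opposite strand (light bars) for Tlr1 (left panel) and Tlr6 (right panel) in each library. At the label CD11b the opposite strand of Tlr1 held 20 to 45 counts per library beside 16 to 41 on the strand of the gene, while at the label CD8 it held 0 to 11 beside 284 to 365.

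Tlr4 (ENSMUSG00000039005, chromosome 4, 66827584 to 66930284), the receptor for lipopolysaccharide, was scarce in every group. It had 0.505 and 2.83 CPM in CD11b KO 1 and 2 and 2.28, 1.81 and 0.930 CPM in CD11b WT 1 to 3, against 5.02 and 1.39 CPM in CD8 KO 1 and 2 and 2.70, 0.724 and 0.852 CPM in CD8 WT 1 to 3. The groups overlapped, with 5 and 34 counts in the CD11b KO libraries and 30, 24 and 10 in CD11b WT, against 61 and 16 in CD8 KO and 25, 8 and 9 in CD8 WT. The log2 fold change between labels was -0.93 ± 0.99 in KO and 0.25 ± 0.82 in WT (SE; edgeR adjusted p = 0.593 and 0.872), with 95% intervals of -2.98 to 1.12 in KO and -1.46 to 1.95 in WT, so a 2-fold difference in either direction lay inside both intervals.

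The endosomal receptors split evenly, with Tlr3, Tlr11 and Tlr12 higher at the label CD11b and Tlr7, Tlr9 and Tlr13 lower. Tlr3 (ENSMUSG00000031639, chromosome 8, 45395665 to 45411080), the receptor for double-stranded RNA, had 127 and 153 CPM in CD11b KO 1 and 2 and 152, 167 and 150.3 CPM in CD11b WT 1 to 3, against 15.5 and 13.3 CPM in CD8 KO 1 and 2 and 17.9, 16.0 and 23.3 CPM in CD8 WT 1 to 3. The lowest library labelled CD11b, at 127 CPM, lay far above the highest labelled CD8, at 23.3 CPM, and the log2 fold change was 3.27 ± 0.18 in KO and 3.03 ± 0.14 in WT (SE; edgeR adjusted p = 2.49e-12 and 7.33e-14). Of its exon bases, 7.32% are overlapped by a predicted gene on the other strand, which the strand-specific counts set apart.

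Tlr11 (ENSMUSG00000051969, chromosome 14, 50357914 to 50363663), which binds profilin of the parasite Toxoplasma gondii and has no functional human counterpart, had 83.6 and 118 CPM in CD11b KO 1 and 2 and 93.4, 116 and 105 CPM in CD11b WT 1 to 3, against 7.25 and 8.80 CPM in CD8 KO 1 and 2 and 14.1, 6.43 and 7.85 CPM in CD8 WT 1 to 3. The label groups were widely separated, at a log2 fold change of 3.65 ± 0.26 in KO and 3.48 ± 0.21 in WT (SE; edgeR adjusted p = 2.12e-10 and 7.46e-12). Tlr12 (ENSMUSG00000062545, chromosome 4, 128615443 to 128618619), which binds the same profilin and acts with Tlr11, had 49.8 and 53.8 CPM in CD11b KO 1 and 2 and 54.1, 60.3 and 61.4 CPM in CD11b WT 1 to 3, against 5.44 and 8.88 CPM in CD8 KO 1 and 2 and 6.59, 6.70 and 3.12 CPM in CD8 WT 1 to 3. Its log2 fold change was 2.86 ± 0.28 in KO and 3.42 ± 0.24 in WT (SE; edgeR adjusted p = 3.26e-08 and 5.61e-11). Per kilobase, Tlr12 over Tlr11 was 0.471 to 0.614 in the 5 libraries labelled CD11b, against 0.410 to 1.07 in the 5 labelled CD8. At the label CD8 the ratio rested on 33 to 102 counts of Tlr12 and 71 to 131 of Tlr11. At the label CD11b these were 493 to 799 and 828 to 1535, so counting error weighed less there.

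The promoters of the 3 receptors that were higher at the label CD11b are shown beside that of Tlr9, the receptor with the highest level at the label CD8. Tlr9 differed less between the labels than Tlr1, Tlr2, Tlr6 and Tlr7, at a log2 fold change of -1.23 in KO and -0.80 in WT. Each promoter shown is the 250 bases before the start used in a RefSeq promoter table on GRCm38.p6, on the strand of the gene. For Tlr3 that start, and with it the window shown, lies inside the gene span given above, because its annotated transcripts begin at several positions. Capitals mark matches to GAAANNGAAA (as in interferon-stimulated response elements), GAGGAA (as bound by PU.1) and TGANTCA (as bound by AP-1). The positions are chr8:45410381-45410630 for Tlr3 (minus strand), chr14:50357664-50357913 for Tlr11 (plus), chr4:128618620-128618869 for Tlr12 (minus) and chr9:106222348-106222597 for Tlr9 (plus).
Tlr3: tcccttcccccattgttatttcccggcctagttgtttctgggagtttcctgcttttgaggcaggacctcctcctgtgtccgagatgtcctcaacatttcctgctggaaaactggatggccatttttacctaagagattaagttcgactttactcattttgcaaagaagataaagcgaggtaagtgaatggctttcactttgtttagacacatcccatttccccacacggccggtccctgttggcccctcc
Tlr11: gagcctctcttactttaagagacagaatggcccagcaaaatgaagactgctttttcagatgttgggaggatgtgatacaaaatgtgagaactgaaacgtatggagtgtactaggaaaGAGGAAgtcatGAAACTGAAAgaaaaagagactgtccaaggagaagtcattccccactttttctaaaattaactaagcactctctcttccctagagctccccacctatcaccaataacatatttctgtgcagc
Tlr12: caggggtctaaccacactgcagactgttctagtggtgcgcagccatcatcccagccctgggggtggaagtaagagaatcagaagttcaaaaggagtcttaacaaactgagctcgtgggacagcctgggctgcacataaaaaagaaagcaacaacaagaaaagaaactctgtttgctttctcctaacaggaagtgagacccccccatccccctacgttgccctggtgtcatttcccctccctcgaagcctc
Tlr9: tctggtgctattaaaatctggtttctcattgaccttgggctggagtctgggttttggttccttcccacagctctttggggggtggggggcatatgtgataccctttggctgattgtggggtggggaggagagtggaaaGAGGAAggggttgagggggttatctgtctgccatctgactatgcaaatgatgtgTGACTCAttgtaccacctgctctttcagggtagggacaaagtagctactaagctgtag

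On either strand, GAAANNGAAA occurs in 2.98% of the 32851 promoters of that table, GAGGAA in 23.3% and TGANTCA in 6.75%; the related GGAANNGAAA occurs in 2.30% and in none of the 8 receptors with a promoter there. Tlr11 held 1 match to GAAANNGAAA, 122 bases before the start, and 1 to GAGGAA, at 133 bases, and the matches do not overlap. Tlr9 held 1 match to GAGGAA and 1 to TGANTCA, and Tlr3 and Tlr12 held none of the 4 words. None of the words searched was in all 3 of the receptors that were high at the label CD11b. Of the other receptors with a promoter in the table, 1 promoter of Tlr6 held 2 overlapping matches to GAAANNGAAA on the other strand, Tlr1 and Tlr13 held 1 GAGGAA each, and Tlr2 held none. A match is a string of letters and not a bound site.

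Tlr7 (ENSMUSG00000044583, chromosome X, 167304929 to 167330558), the receptor for single-stranded RNA, had 7.67 and 6.25 CPM in CD11b KO 1 and 2 and 3.26, 5.66 and 2.79 CPM in CD11b WT 1 to 3, against 44.6 and 52.3 CPM in CD8 KO 1 and 2 and 51.5, 36.5 and 40.9 CPM in CD8 WT 1 to 3. The highest library labelled CD11b lay below every library labelled CD8, and the log2 fold change was -2.80 ± 0.29 in KO and -3.44 ± 0.25 in WT (SE; edgeR adjusted p = 7.07e-08 and 9.46e-11). Tlr9 (ENSMUSG00000045322, chromosome 9, 106222598 to 106226883), the receptor for unmethylated CpG DNA, had 51.4 and 56.2 CPM in CD11b KO 1 and 2 and 66.0, 56.9 and 77.5 CPM in CD11b WT 1 to 3, against 117 and 135 CPM in CD8 KO 1 and 2 and 131, 119 and 99.5 CPM in CD8 WT 1 to 3. It too was lower at the label CD11b without overlap, though by less, at a log2 fold change of -1.23 ± 0.16 in KO and -0.80 ± 0.13 in WT (SE; edgeR adjusted p = 3.00e-06 and 3.32e-05). Tlr13 (ENSMUSG00000033777, chromosome X, 106143204 to 106160493), which binds bacterial ribosomal RNA, had 37.5 and 31.6 CPM in CD11b KO 1 and 2 and 39.2, 40.2 and 33.0 CPM in CD11b WT 1 to 3, against 67.6 and 57.3 CPM in CD8 KO 1 and 2 and 65.4, 80.8 and 54.3 CPM in CD8 WT 1 to 3. Its shift was close to that of Tlr9, at -0.86 ± 0.19 in KO and -0.83 ± 0.15 in WT (SE; edgeR adjusted p = 0.00150 and 1.62e-04). The ratio of Tlr9 to Tlr7 per kilobase was 7.86 and 10.6 in CD11b KO and 11.8 to 32.6 in CD11b WT, against 3.02 and 3.08 in CD8 KO and 2.86 to 3.84 in CD8 WT.

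**Figure D3:**
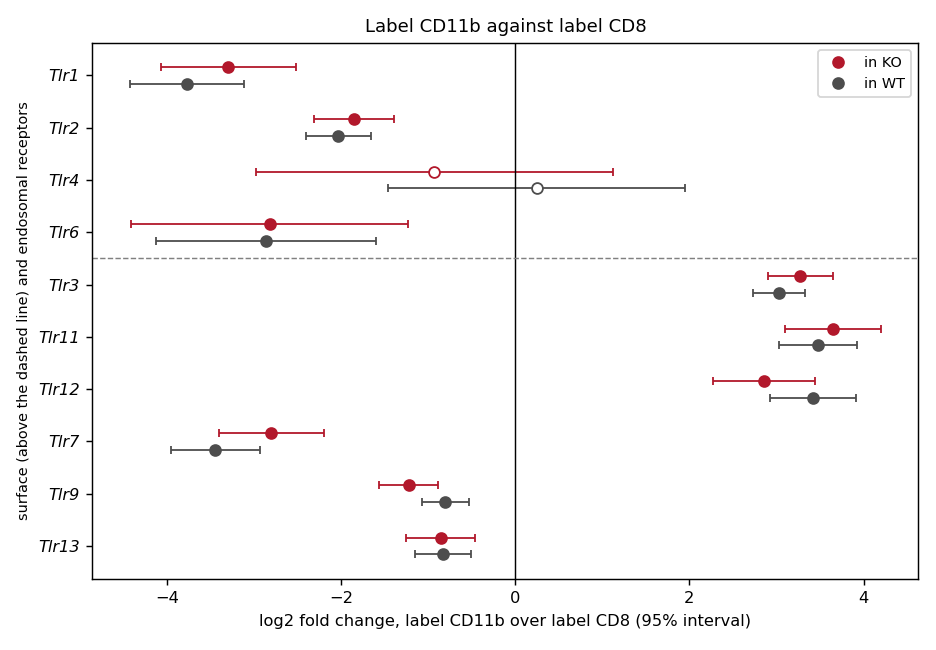
Log2 fold change of each receptor, label CD11b over label CD8, in KO (red) and in WT (grey), with 95% intervals from edgeR; filled points passed an adjusted p of 0.05 and open points did not. Tlr3, Tlr11 and Tlr12 lie between 2.86 and 3.65, and of the other receptors only Tlr4 has intervals that reach 0.

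By class, 3 of 4 surface receptors were lower and 0 higher at the label CD11b in each genotype, with a median log2 fold change of -2.34 in KO and -2.45 in WT. Without Tlr6 this was 2 of 3, with a median of -1.86 in KO and -2.03 in WT. Of the 6 endosomal receptors, 3 were higher and 3 lower in each genotype, with a median of 1.00 in KO and 1.11 in WT. No endosomal receptor lay near these medians. They fall between Tlr13 (-0.86) and Tlr12 (2.86) in KO and between Tlr9 (-0.80) and Tlr3 (3.03) in WT. The median over all genes tested was -0.01 in KO and 0.00 in WT. Of all genes tested, 12.5% were called lower and 10.3% higher in KO, and 15.7% lower and 13.8% higher in WT. In CPM, 9 of 10 receptors had groups that did not overlap between labels in KO, beside 58.7% of all genes tested, and 9 of 10 in WT, beside 41.5% (8 of 9 in each genotype without Tlr6).

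The summed level per kilobase of exon shows the same split within each library. At the label CD11b the surface receptors summed to 4.87 and 6.93 CPM per kilobase in KO and 4.61 to 5.50 in WT, against 26.4 and 27.8 in KO and 26.2 to 27.4 in WT at the label CD8. The endosomal receptors summed to 90.9 and 107 CPM per kilobase in KO and 104 to 113 in WT at the label CD11b, against 67.2 and 72.9 in KO and 59.1 to 75.3 in WT at the label CD8. Surface receptors thus made up 3.91% to 6.07% of the summed level in the 5 libraries labelled CD11b, against 25.8% to 31.7% in the 5 labelled CD8. Within the endosomal sum, Tlr3, Tlr11 and Tlr12 took 72.1% to 76.7% at the label CD11b, against 10.3% to 13.3% at the label CD8. The ranges did not overlap for any of these quantities.

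**Figure D4:**
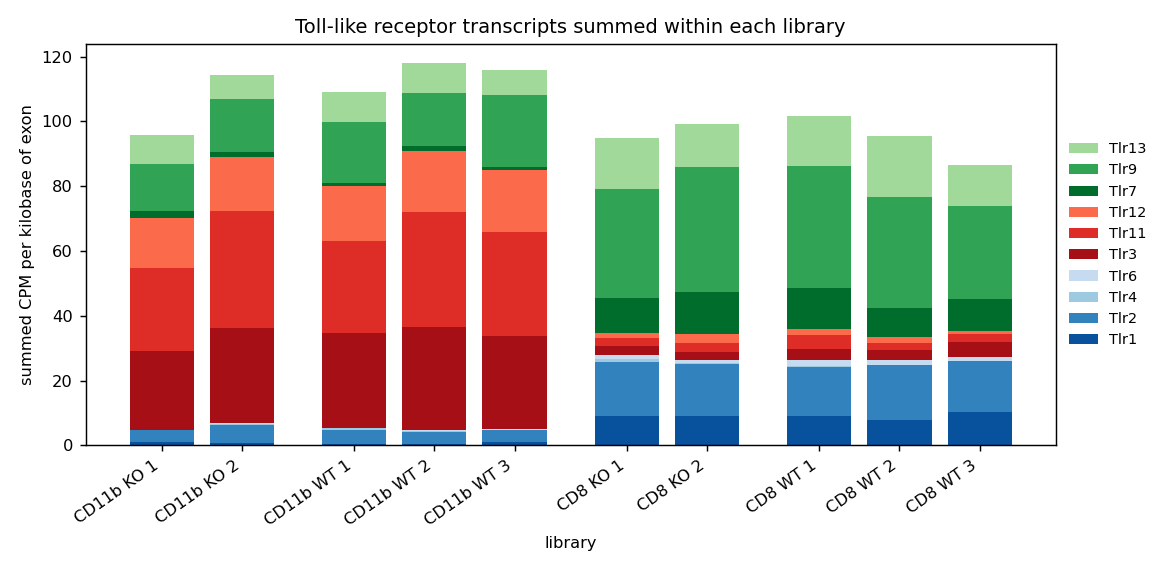
Summed level of the 10 receptors in each library, in CPM per kilobase of exon, stacked by receptor (blue, surface; red, Tlr3, Tlr11 and Tlr12; green, Tlr7, Tlr9 and Tlr13). The share of Tlr3, Tlr11 and Tlr12 in the endosomal sum is 72.1% to 76.7% in the libraries labelled CD11b, against 10.3% to 13.3% in those labelled CD8.

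Ordered by level per kilobase, the receptors ranked differently at the labels. In CD11b KO, Tlr11 (30.8 ± 7.40 CPM per kilobase, SD, n = 2) and Tlr3 (26.8 ± 3.53) led with overlapping ranges, followed by Tlr12 and Tlr9, which also overlapped, then Tlr13, Tlr2, Tlr7 and Tlr1, each apart from the next, and Tlr4 and Tlr6, which overlapped. CD11b WT had nearly that order, with Tlr11 at 32.0 ± 3.42 and Tlr3 at 30.0 ± 1.72 CPM per kilobase (SD, n = 3), except that Tlr9 stood before Tlr12 and that Tlr7, Tlr1, Tlr4 and Tlr6 each overlapped with the next. At the label CD8, Tlr9 led alone, at 36.2 ± 3.57 CPM per kilobase in KO (SD, n = 2) and 33.5 ± 4.57 in WT (SD, n = 3). Tlr2, Tlr13, Tlr7 and Tlr1 followed in that order, with ranges apart from one another in KO and neighbours overlapping in WT. Tlr3, Tlr11 and Tlr12 came after them, apart from Tlr1 in both genotypes and with neighbours among them overlapping. Tlr6 and Tlr4 came last, and Tlr12 overlapped with Tlr6 in WT but not in KO.

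Genes listed as markers of other cells moved with the label too. The 12 B cell markers summed to between 267 and 605 CPM per library at the label CD11b and to between 377 and 2426 CPM at the label CD8, and 11 or 12 of the 12 had a count in every library. The 9 monocyte markers summed to between 211 and 244 CPM at the label CD11b and to between 608 and 830 CPM at the label CD8. The 10 red pulp macrophage markers summed to between 149 and 204 CPM where the label was CD11b and to between 266 and 451 CPM where it was CD8. By gene, 12 of 12 B cell, 6 of 9 monocyte and 7 of 10 macrophage markers were lower at the label CD11b in KO. In WT, 8, 7 and 7 of them were lower, and of all genes tested 12.5% were lower in KO and 15.7% in WT. No B cell or monocyte marker was called higher, but 1 macrophage marker was in WT. The macrophage marker Spic ranged over 16.2 to 28.2 CPM at the label CD11b and over 8.52 to 16.8 CPM at the label CD8. The monocyte marker Ly6c2 ranged over 3.35 to 6.30 CPM and 0.824 to 5.23 CPM under those labels. Much of the monocyte sum at the label CD8 was Csf1r, at 242 to 341 CPM, against 13.4 to 22.8 CPM at the label CD11b. In the macrophage list, Adgre1 had 88.1 to 131 CPM at the label CD8, against 0.372 to 5.33 CPM. Whether other cells or the sorted dendritic cells carried these transcripts was not tested. All 3 sums were thus lowest where Tlr1, Tlr2, Tlr6, Tlr7, Tlr9 and Tlr13 were low, with some overlap for the B cell sum. The 10 plasmacytoid dendritic cell markers, of a cell type known for Tlr7 and Tlr9, summed to between 133 and 211 CPM at the label CD11b and to between 138 and 217 CPM at the label CD8. These like sums hid unlike markers, with 3 of 10 higher and 2 lower at the label CD11b in KO and 4 higher and 1 lower in WT. Siglech ranged over 13.1 to 33.6 CPM at the label CD11b and over 0.576 to 2.37 CPM at the label CD8, and Ccr9 over 23.7 to 35.8 CPM and 3.05 to 7.49 CPM under those labels. Spib lay the other way, at 6.71 to 16.3 CPM under the label CD11b and 38.8 to 64.4 CPM under the label CD8. Several of these cell types are known to express Toll-like receptors, and their part in the result was not tested. An alternative fit without both CD11b WT 1 and CD8 KO 2, the library with 2426 CPM of B cell markers, keeps 1 CD8 KO library. The other libraries labelled CD8 still hold 377 to 952 CPM of B cell markers, so that fit cannot test their part.

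Loss of Atg16l1 was compared next, within each label, which asks whether receptor transcripts depend on this autophagy gene. At the label CD11b, 0 of 10 receptors passed in edgeR. Tlr7 and Tlr9, 2 of 10, had an unadjusted p under 0.05, beside 932 of all 14528 genes tested. Tlr7 had 7.67 and 6.25 CPM in CD11b KO, against 3.26, 5.66 and 2.79 CPM in CD11b WT, without overlap. The log2 fold change, KO over WT, was 0.82 ± 0.28 (SE; 95% interval 0.23 to 1.40; edgeR adjusted p = 0.572). Tlr9 had 51.4 and 56.2 CPM in CD11b KO, against 66.0, 56.9 and 77.5 CPM in CD11b WT, or -0.31 ± 0.15 on the log2 scale (SE; 95% interval -0.62 to -0.00; edgeR adjusted p = 0.778). Neither Tlr7 nor Tlr9 passed after adjustment. B cell markers summed to 267 and 605 CPM in CD11b KO, against 269 to 351 CPM in CD11b WT, and plasmacytoid dendritic cell markers to 169 and 177 CPM, against 133 to 211 CPM; their part in these values was not tested. Groups without overlap were seen in 3 of 10 receptors (Tlr7, Tlr9 and Tlr12), beside 20.5% of all genes tested.

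The other 8 receptors at the label CD11b had log2 fold changes between -0.42 (Tlr6) and 0.44 (Tlr1). The 95% interval was -0.46 to 0.13 for Tlr3, -0.48 to 0.37 for Tlr11, -0.65 to 0.30 for Tlr12 and -0.48 to 0.24 for Tlr13, so a 2-fold change in either direction lay outside the interval for these 4 endosomal receptors. It was -0.19 to 0.66 for Tlr2 and -0.34 to 1.22 for Tlr1. For Tlr4, -1.86 to 1.87, and Tlr6, -1.93 to 1.09, the intervals spanned a 2-fold change both ways.

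At the label CD8, 0 of 10 receptors passed in edgeR. Only Tlr3, 1 of 10, had an unadjusted p under 0.05, beside 947 of all 14528 genes tested. Tlr3 had 15.5 and 13.3 CPM in CD8 KO, against 17.9, 16.0 and 23.3 CPM in CD8 WT, a log2 fold change of -0.40 ± 0.17 (SE; 95% interval -0.75 to -0.06; edgeR adjusted p = 0.654). This is the label at which Tlr3 was low. Groups without overlap were seen in 2 of 10 receptors (Tlr3 and Tlr6), beside 24% of all genes tested. The 95% interval was -0.64 to 0.58 for Tlr1, -0.33 to 0.46 for Tlr2, -0.31 to 0.66 for Tlr7, -0.19 to 0.41 for Tlr9, -0.76 to 0.31 for Tlr11, -0.18 to 0.96 for Tlr12 and -0.45 to 0.25 for Tlr13, none of which reached a 2-fold change. Tlr6, -1.75 to 0.82, and Tlr4, -0.67 to 3.02, were bounded less closely. B cell markers summed to 847 and 2426 CPM in CD8 KO, against 377 to 952 CPM in CD8 WT, and red pulp macrophage markers to 438 and 451 CPM, against 266 to 357 CPM. Plasmacytoid dendritic cell markers summed to 156 and 217 CPM in CD8 KO, against 138 to 154 CPM in CD8 WT. Of these markers, 1 of 10 was called higher, as was 1 of 10 cDC2 markers, beside 0.145% of all genes called. The part of other cells in the receptor values was not tested.

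**Figure D5:**
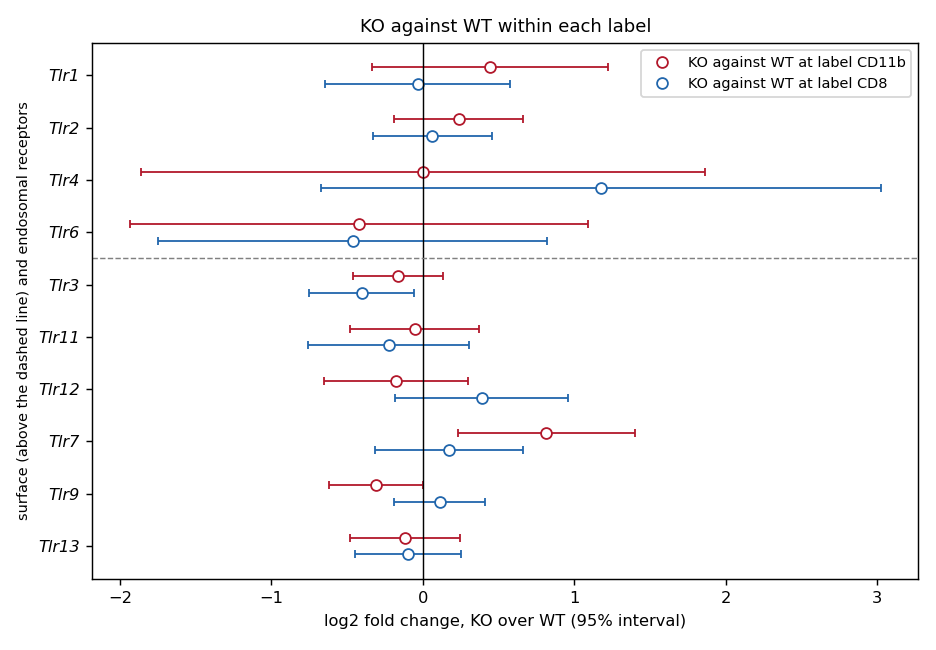
Log2 fold change of each receptor, KO over WT, at the label CD11b (red) and the label CD8 (blue), with 95% intervals from edgeR; all points are open because no receptor passed an adjusted p of 0.05. The interval for Tlr7 at the label CD11b runs from 0.23 to 1.40, and that for Tlr4 is the widest at both labels.

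The KO effect did not pass a test of difference between the labels for any receptor: 0 of 10 passed in edgeR, beside 0.0206% of all genes tested. An unadjusted p under 0.05 was seen in 0 of 10, beside 793 of all 14528 genes tested. The difference, label CD11b minus label CD8, was -0.42 ± 0.21 on the log2 scale for Tlr9 (SE; edgeR adjusted p = 0.924) and 0.64 ± 0.37 for Tlr7 (SE; edgeR adjusted p = 0.942). It was -0.56 ± 0.36 for Tlr12, 0.48 ± 0.48 for Tlr1, 0.24 ± 0.22 for Tlr3, 0.17 ± 0.28 for Tlr2, 0.17 ± 0.33 for Tlr11 and -0.02 ± 0.24 for Tlr13. For the scarce Tlr4 and Tlr6 it was -1.17 ± 1.28 and 0.04 ± 1.13 (SE). DESeq2 and limma also called 0 of 10 receptors at either label and in the difference. With 2 KO mice per label, the intervals above are the limit of what these libraries show.

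Of the 57 other genes listed for the pathway, 56 could be tested. In KO, 8 were higher and 18 lower at the label CD11b, and in WT 8 were higher and 20 lower, which is 46.4% and 50% of those tested beside the 22.8% and 29.5% of all genes. These lists were drawn up with earlier results of the same libraries known. Of the 5 co-receptors, 3 were higher (Cd36, Cd180 and Cd14) and 1 lower (Ly86) in each genotype. Cd36, a scavenger receptor that aids Tlr2 with Tlr6, averaged 180.0 ± 34.6 CPM in CD11b KO and 19.6 ± 6.34 CPM in CD8 KO (SD, n = 2 each), and 203 ± 37.1 CPM in CD11b WT and 15.3 ± 7.59 CPM in CD8 WT (SD, n = 3 each). Its log2 fold change was 3.20 ± 0.28 in KO and 3.74 ± 0.24 in WT (SE; edgeR adjusted p = 4.02e-09 and 9.87e-12), opposite in direction to Tlr2 and Tlr6. Cd14, which hands lipopolysaccharide to Tlr4, had a log2 fold change of 0.85 ± 0.23 in KO and 0.76 ± 0.19 in WT (SE; edgeR adjusted p = 0.00807 and 0.00280). In KO its call was lost without CD11b KO 1 (adjusted p = 0.126) or CD8 KO 1 (0.159). Cd180, a receptor-like protein that modulates Tlr4, had a log2 fold change of 0.67 ± 0.17 in KO and 0.99 ± 0.14 in WT, whereas its secreted partner Ly86 stood at -0.96 ± 0.15 and -0.60 ± 0.12 (SE). The call of Cd180 in KO was lost without CD11b KO 2 (edgeR adjusted p = 0.214) or CD8 KO 1 (0.0829). Ly96, the lipopolysaccharide-binding partner of Tlr4, was as scarce as Tlr4, at 4.54 and 1.17 CPM in CD11b KO and 0.304, 1.28 and 0.651 CPM in CD11b WT, against 1.40 and 1.74 CPM in CD8 KO and 1.40, 0.634 and 1.04 CPM in CD8 WT, and did not pass.

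Of the 7 genes that fold and move the receptors, 2 were higher and 1 lower in KO, and 3 were higher and 1 lower in WT. That is 42.9% and 57.1% called, beside 22.8% and 29.5% over all genes. Hsp90b1, the chaperone gp96 that folds most Toll-like receptors, was higher, at a log2 fold change of 1.15 ± 0.11 in KO and 1.33 ± 0.09 in WT (SE; edgeR adjusted p = 1.99e-08 and 3.37e-11). Unc93b1, which carries the endosomal receptors out of the endoplasmic reticulum, averaged 687 ± 65.5 CPM in CD11b KO and 614 ± 27.0 CPM in CD8 KO, and 719.9 ± 41.9 CPM in CD11b WT and 594 ± 52.4 CPM in CD8 WT. Its log2 fold change was 0.16 ± 0.11 in KO, which did not pass (edgeR adjusted p = 0.325), and 0.28 ± 0.09 in WT (adjusted p = 0.0163). The WT call was lost without CD11b WT 1 (adjusted p = 0.0672) or CD8 WT 3 (0.109). Slc15a4, an endolysosomal transporter needed for Tlr7 and Tlr9 signalling, was lower, at a log2 fold change of -1.45 ± 0.16 in KO and -1.30 ± 0.13 in WT (SE; edgeR adjusted p = 1.97e-07 and 2.70e-08), the direction of Tlr7 and Tlr9.

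Endosomal processing genes were lower or did not pass, with 4 of 9 tested lower and 0 higher in each genotype. That is 44.4% called in each, beside 22.8% in KO and 29.5% in WT over all genes. Lgmn and Ctss encode the proteases legumain and cathepsin S, which can cut endosomal receptors. Lgmn had a log2 fold change of -2.19 ± 0.13 in KO and -1.81 ± 0.11 in WT (SE; edgeR adjusted p = 1.13e-11 and 3.23e-12), and Ctss one of -1.08 ± 0.11 in KO and -0.85 ± 0.09 in WT (SE; edgeR adjusted p = 2.98e-08 and 3.03e-08). Pld3, an exonuclease that degrades ligands of Tlr9, had one of -2.84 ± 0.42 in KO and -2.06 ± 0.34 in WT (SE; edgeR adjusted p = 1.55e-05 and 3.93e-05). Without CD11b KO 2 it was -3.56 in KO.

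Among the 6 adaptors, 1 was higher (Sarm1 in KO, Ticam1 in WT) and 1 lower (Ticam2) in each genotype. That is 33.3% called in each genotype, near the 22.8% in KO and 29.5% in WT over all genes. The call of Sarm1 in KO was lost without CD11b KO 1, CD8 KO 1 or CD8 KO 2 (edgeR adjusted p = 0.0743, 0.0680 and 0.125). Myd88, used by all receptors here but Tlr3, averaged 62.8 ± 1.20 CPM in CD11b KO and 58.0 ± 2.53 CPM in CD8 KO, and 66.0 ± 5.64 CPM in CD11b WT and 64.6 ± 13.6 CPM in CD8 WT. It did not pass in either genotype (log2 fold change 0.12 ± 0.17 and 0.03 ± 0.14). Ticam1, the adaptor TRIF used by Tlr3, had a log2 fold change of 0.33 ± 0.18 in KO, which did not pass (edgeR adjusted p = 0.239), and 0.47 ± 0.15 in WT (adjusted p = 0.0205). The call in WT was lost without CD11b WT 2, CD11b WT 3, CD8 WT 1 or CD8 WT 2 (adjusted p at most 0.0922). Ticam2, the bridge TRAM between Tlr4 and TRIF, had 4.54 and 1.25 CPM in CD11b KO 1 and 2 and 0.911, 1.13 and 1.30 CPM in CD11b WT 1 to 3, against 17.4 and 17.7 CPM in CD8 KO 1 and 2 and 25.5, 25.8 and 24.8 CPM in CD8 WT 1 to 3. Its log2 fold change was -2.62 ± 0.41 in KO and -4.50 ± 0.38 in WT (SE; edgeR adjusted p = 3.27e-05 and 1.26e-09). In KO it was -3.80 without CD11b KO 1 and -1.95 without CD11b KO 2, past the threshold both times.

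Inhibitors of the pathway were lower at the label CD11b, 6 of 7 in KO and 5 of 7 in WT, and 0 were higher. Tnfaip3, the deubiquitinase A20, had a log2 fold change of -1.33 ± 0.11 in KO and -1.22 ± 0.09 in WT (SE; edgeR adjusted p = 1.34e-09 and 1.05e-10). Irak3, a kinase relative that blocks signalling, had one of -3.17 ± 0.67 in KO and -3.42 ± 0.56 in WT (SE; edgeR adjusted p = 9.26e-04 and 3.76e-05). In WT it was -2.75 with counts from both strands. Of the 16 kinases and ubiquitin ligases, 1 was higher and 2 lower in KO and 0 were higher and 4 lower in WT, which is 18.8% and 25% called and no more than the 22.8% and 29.5% over all genes. Traf3, a ubiquitin ligase of the interferon branch, had a log2 fold change of -1.08 ± 0.13 in KO and -0.92 ± 0.10 in WT (SE; edgeR adjusted p = 6.50e-07 and 2.11e-07), and the kinase Ikbkb one of -0.72 ± 0.11 in KO and -0.72 ± 0.09 in WT (SE; edgeR adjusted p = 2.26e-05 and 9.35e-07). Among the 6 transcription factors, 1 was higher and 3 lower in KO and 1 higher and 4 lower in WT, with Nfkb1, Rel and Rela lower and Irf5 higher in both. The log2 fold change of Nfkb1 was -1.05 ± 0.10 in KO and -1.22 ± 0.08 in WT (SE; edgeR adjusted p = 3.72e-08 and 5.36e-11), and that of Irf5, a factor used by Tlr7 and Tlr9, was 0.71 ± 0.11 in KO and 0.73 ± 0.09 in WT (SE; edgeR adjusted p = 2.36e-05 and 6.09e-07).

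Between KO and WT, the only listed pathway gene that passed was Ly86 at the label CD11b, 1 of 56 beside 0.145% of all genes. There, 6 of 56 had an unadjusted p under 0.05, beside 932 of all 14528 genes tested. Ly86 had 43.6 and 38.7 CPM in CD11b KO 1 and 2 and 67.8, 69.2 and 65.9 CPM in CD11b WT 1 to 3, against 72.6 and 87.7 CPM in CD8 KO 1 and 2 and 113, 97.0 and 97.8 CPM in CD8 WT 1 to 3. The log2 fold change, KO over WT, was -0.72 ± 0.14 at the label CD11b (SE; edgeR adjusted p = 0.0271) and -0.36 ± 0.13 at the label CD8 (SE; edgeR adjusted p = 0.589). The call at the label CD11b was lost in limma (adjusted p = 0.133) and when any 1 of the 5 libraries labelled CD11b or CD8 WT 2 was left out (adjusted p = 0.0525 to 0.276). Without CD11b KO 2, Ticam2 passed in place of Ly86 (log2 fold change 2.02, edgeR adjusted p = 0.0301), with 4.54 and 1.25 CPM in CD11b KO 1 and 2, against 0.911, 1.13 and 1.30 CPM in CD11b WT. At the label CD8 and in the difference, 0 of 56 passed in edgeR, DESeq2 or limma. An unadjusted p under 0.05 was seen in 4 and 7 of 56, beside 947 and 793 of all 14528 genes tested. Unc93b1, Myd88, Cd14 and Ticam1 had log2 fold changes of -0.07, -0.07, -0.04 and 0.07 at the label CD11b and 0.05, -0.16, -0.13 and 0.22 at the label CD8, and none of them passed.

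For each receptor, the genes most like it were those with the smallest root mean square difference in centred log2 CPM over the 10 libraries, among 10875 genes with a mean of at least 1 CPM. Nearest to Tlr3 were Cst3 (0.15), Dbn1 (0.17) and Asap2 (0.17). Nearest to Tlr11 were Cd36, Arpin and P2ry14 (0.23 to 0.24), and Arpin was also the second nearest to Tlr12, after Cd81 (0.17). Nearest to Tlr9 was Myo5a (0.13), to Tlr13 Klri1 (0.11), to Tlr2 Sorl1 (0.15), to Tlr6 Lair1 (0.20), to Tlr1 Ms4a6b (0.28) and to Tlr7 Atrnl1 (0.28). Tlr4 had no near gene, its closest being Cdk5rap1 at 0.49. Among the receptors themselves the closest pairs were Tlr9 with Tlr13 (0.26), Tlr3 with Tlr11 (0.39), Tlr11 with Tlr12 (0.44) and Tlr2 with Tlr6 (0.46). These distances describe the 10 libraries, which share labels, and carry no test.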

How the data were processed

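RNA from sorted spleen dendritic cells was sequenced as strand-specific total RNA libraries, per the labels' protocols. The submitters' processing notes name STAR 2.5.0a as the aligner and GRCm38 as the genome; the annotation release and any removal of duplicates are not given in the sources used here. The authors deposited counts of reads per gene, not normalized, once without strand and once for each strand. The column for one strand was used, whose gene counts were 13.5 to 17.7 times those of the other strand. Lines that name no gene, including reads mapped to several places (21.7% to 25.5%), held 59.2% to 67.8% of the 27495783 to 34289259 reads and were left out. Of 53379 gene identifiers, 53274 matched the GENCODE annotation of GRCm38, including all 10 receptors.

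edgeR 4.0.16 was fitted to all 10 libraries with 4 group means (TMM scaling, filterByExpr by group, 14528 genes, quasi-likelihood test, Benjamini-Hochberg adjustment over all genes, called under 0.05). The model was checked on simulated counts. Each standard error is the log2 fold change divided by the square root of its F statistic. CPM used TMM-scaled library sizes, divided by the union of GENCODE exons where levels of different genes are compared. The libraries come from individual mice, per the labels' protocols. Same-numbered libraries were compared between labels and between genotypes by the correlation of their deviations from group means. The receptors, the pathway and marker lists and the tests were chosen with earlier results of these data known. Every receptor is named in every comparison; of each pathway list at most 4 genes are named per comparison, the called ones with the smallest p, apart from Unc93b1, Cd14, Ly96, Myd88 and Ticam1; Ticam2 is named once more after its values were seen. Alternatives were RLE size factors, other filters, unstranded counts, leaving out genes of mitochondrial and ribosomal RNA, limma 3.58.1, DESeq2 1.42.0, restricted fits, a replicate block and each library left out. Opposite-strand CPM was compared between labels by exact permutation. R 4.3.3 and Python 3.11.15 were used.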

Additional observations from a re-analysis of the deposited data

Results flagged for a closer look

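Opposite-strand counts lie outside the comparisons above. At the label CD11b, those of Tlr1 and Tlr6 outnumbered the counts on their own strand, and neither gene passed a test between labels. Tlr1 had 163 counts on the opposite strand over the 5 libraries labelled CD11b, with 20 and 36 in CD11b KO and 37, 45 and 25 in CD11b WT, against 28 over the 5 libraries labelled CD8. In CPM this was 2.71 ± 0.545 at the label CD11b and 0.546 ± 0.544 at the label CD8 (SD, n = 5 each), without overlap. A two-sided exact permutation test gave p = 0.00794, the smallest that 5 against 5 libraries allow, and 0.0794 after Benjamini-Hochberg adjustment over the 10 receptors, so it did not pass. Tlr6 had 64 such counts at the label CD11b, against 18 at the label CD8. The CPM were 1.12 ± 0.768 at the label CD11b and 0.320 ± 0.233 at the label CD8 (SD, n = 5 each), with overlap (exact permutation p = 0.0714, adjusted p = 0.238). Both genes were lower at the label CD11b on their own strand. Tlr3 had 0.654 ± 0.378 CPM on the opposite strand at the label CD11b and 0.0675 ± 0.108 CPM at the label CD8 (SD, n = 5 each), with overlap (exact permutation p = 0.0159, adjusted p = 0.0794); its exons are crossed by a predicted gene on that strand. The adjusted p of the other 7 receptors was 0.238 to 0.825. The transcripts behind these counts were not identified.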

How the results depend on the processing

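Across the 20 alternatives, 9 of 10 receptors passed between labels in WT each time, and 8 or 9 in KO, where the one lost was Tlr6. No alternative called a receptor between KO and WT or in the difference. Whether same-numbered libraries of the labels came from the same mouse is not given in the sources used here. In their deviations from group means, same-numbered libraries of the other label and same genotype correlated at 0.018 to 0.049. Those of the other genotype and same label correlated at -0.037 to 0.059. In the KO groups of 2 the deviations mirror each other, so these values cannot decide whether libraries are paired. With the replicate block, 9 receptors passed between labels in KO, 9 in WT and 0 between genotypes, and of the pathway genes 26 in KO, 31 in WT, 1 between KO and WT at the label CD11b and 0 at the label CD8. Over all alternatives, 19 to 28 pathway genes passed between labels in KO and 24 to 31 in WT. The 1 pathway gene called at the label CD11b, Ly86, became 0 with limma and without both CD11b WT 1 and CD8 KO 2, and 0 to 1 with 1 library left out. The ratio of endosomal to surface level was 13.9 in CD11b KO and 17.8 in CD11b WT with unstranded counts, against 17.1 and 21.8 with the strand used. The scaling moved the median of all genes by less than 0.1 (log2).

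Sign changes under an alternative were seen only in values that had not passed, for the results and settings listed here, and the cause was not tested. Between labels, with 1 library left out, the log2 fold change of Tlr4 ran from -2.64 to 0.27 in KO and from -0.062 to 1.08 in WT (-0.033 without both libraries named above), that of Ly96 from -0.43 to 1.53 and of Irak2 from -0.12 to 0.046 in KO, and that of Myd88 from -0.079 to 0.21 in WT (-0.0027 with unstranded counts). For KO over WT at the label CD11b, Tlr4 was -0.0015 without a filter, -0.15 in limma, -0.0024 with only the libraries compared and -0.064 with the replicate block, and Tlr6 was 0.0052 with unstranded counts. With 1 library left out there, Tlr4 ran from -1.71 to 0.75, Tlr11 from -0.32 to 0.17, Tlr2 from -0.10 to 0.50 and Tlr13 from -0.25 to 0.0013. At the label CD8, Tlr1 was 0.20 with the replicate block, and Tlr12 was -0.00097 and Tlr13 0.021 without both libraries. With 1 library left out there, Tlr1 ran from -0.12 to 0.061, Tlr11 from -0.44 to 0.17, Tlr12 from -0.00087 to 0.70, Tlr13 from -0.23 to 0.065 and Tlr4 from -0.024 to 2.01. In the difference, Tlr2 ran from -0.16 to 0.44, Tlr4 from -2.89 to 0.026, Tlr6 from -0.37 to 0.34, Tlr11 from -0.22 to 0.40 and Tlr13 from -0.18 to 0.11. With 2 KO libraries per label, a left-out KO library leaves 1 that is assumed to vary like the other groups. Tlr4 and Tlr6 rest on few counts, so their intervals are wide.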
